A study of Mus musculus with 36 samples.

Results

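The genes described here are 40 enzymes and regulators of fatty acid oxidation, acyl-CoA handling and ketone body metabolism, followed on microarrays of the mouse striatum after acute and chronic morphine. They were chosen by name, by their place in the pathway, with earlier results of these data known. The shares of members called are therefore not independent of those results. Of the 40 genes, 39 had at least 1 probe set on the array, 73 probe sets in all, and 36 genes had at least 1 detected probe set, that is, one whose log2 signal was greater than 6.64 on at least 9 of the 36 arrays. These 36 genes, with 60 detected probe sets, are set against the 13224 genes and 27212 probe sets that passed the same filter. The low-signal filter left out Acox3 and Ehhadh, enzymes of peroxisomal oxidation, and Ppara, the nuclear receptor that switches on many of these genes in liver. Acsl1 was not analysed here because the probe table used pairs no probe set with it.

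Long-chain fatty acids are activated to acyl-CoA by synthetases and enter mitochondria through the carnitine shuttle. There a cycle of dehydrogenation, hydration, a second oxidation and thiolysis shortens them to acetyl-CoA, and electron transfer flavoproteins carry the electrons to the respiratory chain. Peroxisomes shorten very long and branched chains, thioesterases release free fatty acids from acyl-CoA, and ketone bodies made in the liver are burned in the brain by a mitochondrial transferase and thiolase. In brain, fatty acid oxidation is known mainly from astrocytes, and neurons rely on glucose, lactate and ketone bodies.

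Total RNA of the striatum, the rostral caudate and putamen with the nucleus accumbens, was taken from adult male mice, 8 to 10 weeks old, of the strains SWR/J, DBA/2J, C57BL/6J and 129P3/J, 4 inbred lines. Each strain had a chronic morphine, an acute morphine and a saline group of 9 mice, and each group was measured on 3 Affymetrix Mouse Genome 430 2.0 arrays, each holding the pooled RNA of 3 mice. Chronic groups were injected with morphine 3 times a day for 4 days, each injection holding 10 mg/kg on the first day, 20 mg/kg on the next and 40 mg/kg thereafter, and had a last 40 mg/kg on day 5. Acute groups had saline on that schedule and a single 20 mg/kg of morphine on day 5, saline groups had saline throughout, and tissue of all mice was taken at 4 hours from the final injection. The last dose and the number of doses therefore differ together between chronic and acute groups, and the p-values measure the spread between pools. Differences over all strains average the 4 within-strain log2 differences, 12 arrays against 12, and were tested in limma with p-values adjusted by the Benjamini-Hochberg method over all detected probe sets, and a gene was called at an adjusted p under 0.05. The brightest detected probe set, by mean signal, stands for each gene. Because signals of different probe sets are not on a common scale, levels were compared only within a gene. Signals of bulk tissue cannot tell fewer cells of a type from less RNA per cell.

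Some features of the whole data set bear on these genes. Arrays that share treatment and replicate number deviated together across strains (mean Pearson r of 0.26 over 54 pairs of arrays, across probe sets, which are not independent). A second fit therefore took each such set as a random block. Its adjusted p is given where it ends a named contrast call of a member or other pathway gene by its brightest probe set. It is also given for strain F-tests near the limit. For markers the calls that it kept or ended are named. The 4 chronic arrays numbered 2 had a median deviation over the 36 members of 0.06 on the log2 scale from their group means, with 32 of 36 members above 0. Other sets deviated too. The saline arrays numbered 2 also had 0.06, with 25 members above 0. Below 0 were 30 members in the chronic arrays numbered 1 and 27 in the acute arrays numbered 3. The same deviation over all genes was not computed. The score of the hybridization controls, centred over all arrays, was 0.17 ± 0.15 in chronic, -0.18 ± 0.37 in acute and 0.01 ± 0.26 in saline arrays (SD, n = 12 arrays each). The acute arrays numbered 1 and 3 ran from -0.50 to -0.28, below every chronic array (-0.10 to 0.35). Those numbered 2 ran from 0.09 to 0.66. The part of this split in the differences between chronic and acute groups was not tested. Saline arrays 129P3/J number 3, DBA/2J number 3 and C57BL/6J number 1 stood apart in control probe sets. 129P3/J number 3 and DBA/2J number 3 were low in the centred poly-A controls (-3.58 and -3.47). C57BL/6J number 1 had a Gapdh 3′ minus 5′ log2 difference of 0.72, against at most 0.12 in chronic and 0.11 in acute arrays. SWR/J chronic number 2 had a poly-A score of -0.86 and was not counted with these saline arrays. Of the medium spiny neuron markers, which define the tissue, 8 of 10 were detected, with a summed signal of 15800 to 18600 in chronic, 15440 to 18790 in acute and 16450 to 19700 in saline arrays.

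In the comparison of chronic with acute morphine, which asks how the response to repeated dosing differs from that to a first dose, 12 of the 36 members were called lower and 1 higher in chronic groups. Over all 13224 genes, 17.5% were called lower and 6.08% higher in this comparison. The median log2 difference was -0.13 over the members and -0.03 over all genes, and 29 of 36 members (80.6%) lay below 0, as did 57.4% of all genes. By strain, the members' median was -0.17 in SWR/J, -0.19 in DBA/2J, -0.05 in C57BL/6J and -0.11 in 129P3/J, against -0.06, -0.07, -0.01 and -0.02 over all genes in the same strains. In the acute groups 6 of 36 members were called higher than in saline and 0 lower by limma (2.92% and 1.74% of all genes), and at an unadjusted p under 0.05 there were 10 members in either direction, and 18.9% of all genes. In the chronic groups 1 member was called higher and 1 lower than in saline, against 1.35% and 4.39% of all genes. Without C57BL/6J chronic number 2 the chronic count was 10 in place of 2, without DBA/2J chronic number 2 it was 5, and without SWR/J chronic number 2 or 129P3/J saline number 1 it was 4. The counts over all genes with these arrays left out were not computed. Both contrasts with acute groups share the same acute arrays, and both contrasts with saline share the same saline arrays, so that their values are not independent of each other. The F-test for morphine at an FDR of 1% called 10 of 36 members, Plin4, Crot, Cpt2, Acot1, Acot11, Hadhb, Hsd17b4, Eci2, Acot2 and Oxct1, and 9.25% of all genes. With the random block 3 members passed, Plin4, Crot and Cpt2. Omission of a single array ended the call of Acot2 in 21 of 36 cases, of Oxct1 in 22 and of Eci2 in 4, with adjusted p up to 0.0192, 0.0225 and 0.0129.

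**Figure D1:**
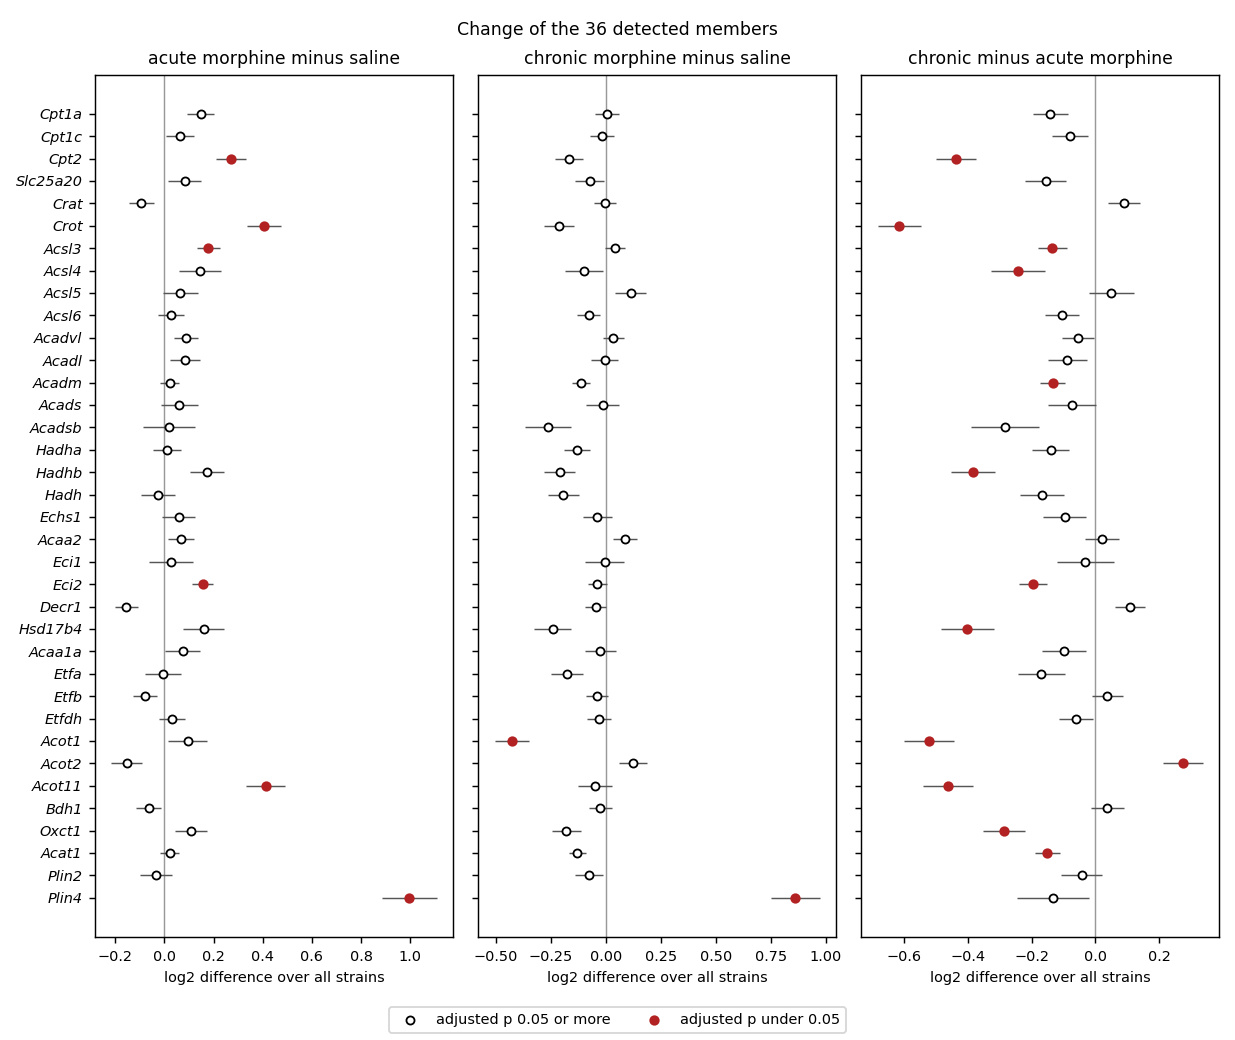
Log2 difference (x axis) of each of the 36 detected members (rows, in order of their role in the pathway) over all strains, with its standard error as a bar, for acute morphine minus saline, chronic morphine minus saline and chronic minus acute morphine. Filled points passed an adjusted p of 0.05. In the right panel 12 of the 13 filled points lie below 0, and the scale differs between panels.

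**Figure D2:**
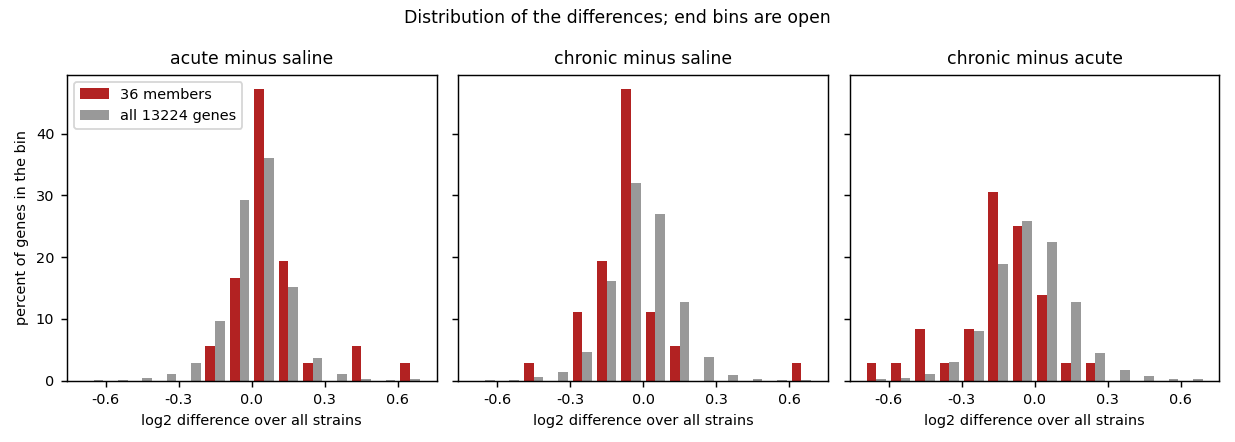
Share of genes (y axis, percent) in bins of the log2 difference over all strains (x axis), for the 36 members and for all 13224 genes. For chronic minus acute the members' median is -0.13 and that of all genes is -0.03.

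The promoters of 5 members called by the morphine F-test are shown. Among them are Plin4, the member with the largest change, and Crot and Cpt2, carnitine acyltransferases that fell together in chronic relative to acute groups. The others are Acot1 and Acot2, neighbouring thioesterase genes. The probe sets that stand for these thioesterase genes had chronic minus acute differences of opposite signs. Each run is the 250 bases before the annotated start, 5′ to 3′, from RefSeq on GRCm38.p6, and capitals mark matches on either strand to a CCAAT box (CCAAT) or a GC box (GGGCGG).
Plin4, chr17:56109783-56110032, strand -: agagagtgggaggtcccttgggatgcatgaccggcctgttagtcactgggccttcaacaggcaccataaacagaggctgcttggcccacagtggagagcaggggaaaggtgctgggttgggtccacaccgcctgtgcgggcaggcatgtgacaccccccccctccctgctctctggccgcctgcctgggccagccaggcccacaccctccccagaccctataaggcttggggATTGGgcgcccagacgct
Crot, chr5:8997147-8997396, strand -: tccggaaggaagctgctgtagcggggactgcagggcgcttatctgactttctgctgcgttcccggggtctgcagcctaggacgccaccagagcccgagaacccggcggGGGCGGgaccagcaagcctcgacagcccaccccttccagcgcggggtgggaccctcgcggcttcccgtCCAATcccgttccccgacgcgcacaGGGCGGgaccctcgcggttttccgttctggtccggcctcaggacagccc
Cpt2, chr4:107923590-107923839, strand -: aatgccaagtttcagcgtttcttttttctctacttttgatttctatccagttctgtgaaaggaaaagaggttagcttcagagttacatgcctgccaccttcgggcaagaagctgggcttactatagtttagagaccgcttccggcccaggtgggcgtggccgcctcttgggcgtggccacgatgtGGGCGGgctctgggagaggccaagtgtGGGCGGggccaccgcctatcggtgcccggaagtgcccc
Acot1, chr12:84009252-84009501, strand +: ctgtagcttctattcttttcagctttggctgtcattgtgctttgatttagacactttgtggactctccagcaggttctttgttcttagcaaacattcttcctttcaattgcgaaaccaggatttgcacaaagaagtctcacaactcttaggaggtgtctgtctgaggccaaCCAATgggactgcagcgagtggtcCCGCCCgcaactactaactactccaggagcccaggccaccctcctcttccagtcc
Acot2, chr12:83987611-83987860, strand +: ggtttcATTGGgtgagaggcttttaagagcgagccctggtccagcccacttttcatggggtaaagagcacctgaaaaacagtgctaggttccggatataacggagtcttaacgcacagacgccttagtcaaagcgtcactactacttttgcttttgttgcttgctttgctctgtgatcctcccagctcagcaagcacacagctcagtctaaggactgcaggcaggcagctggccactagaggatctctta
None of these 5 runs held the nuclear receptor core site AGGTCA, the repeat AGGTCANAGGTCA through which PPAR receptors bind, the glucocorticoid response element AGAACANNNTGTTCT or the TATA box TATAAA. Crot had 2 GC boxes, 142 and 49 bases before the start, and a CCAAT box at 74. Cpt2 had 2 GC boxes, at 65 and 38 bases, and no CCAAT box. Acot1 had a CCAAT box at 79 and a GC box at 55 bases, Acot2 only a CCAAT box at 244 bases, and Plin4 only a CCAAT box at 18 bases. Promoter entries matched 35 of the 40 members, all but Crat, Acaa2, Decr1, Hsd17b4 and Acat1. In windows of 300 bases, from 250 before to 50 after the start, a GC box was present in 28 of 35 member genes (38.2% of 27025 genes in the table), a CCAAT box in 19 (41.1%), the core site in 7 (18.1%) and a TATA box in 0 (15.7%). The PPAR repeat was in 0 member genes and 0.0481% of all genes, and the glucocorticoid element in 0 and 0.0111%. The PPAR repeat contains the core site. At shares this low over all genes, the absence of the exact PPAR repeat and glucocorticoid element does not set the members apart. A match, or its absence, describes the letters of this window only.

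The carnitine shuttle had 6 members, all detected. In chronic relative to acute groups 2 of the 6 were called lower, Crot and Cpt2, and the same 2 were called higher in acute than in saline groups. Crot encodes the peroxisomal carnitine octanoyltransferase, which makes medium-chain acylcarnitines for export to mitochondria. Its signal ran from 196 to 286 with a median of 244 in the 12 chronic arrays, from 321 to 427 with a median of 374 in the 12 acute arrays, and from 221 to 366 with a median of 277 in the 12 saline arrays. Every chronic array therefore lay below every acute array. Crot fell by 0.62 ± 0.07 (SE) on the log2 scale in chronic relative to acute groups, a fold of 0.652 (limma, adjusted p = 2.26e-05). It was 0.40 ± 0.07 higher in acute than in saline groups (adjusted p = 0.000605), with 8 of 12 acute arrays above every saline array. The chronic minus saline difference was -0.21 ± 0.07 (adjusted p = 0.067), negative in 4 of 4 strains.

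Crot was also called within DBA/2J and C57BL/6J. In DBA/2J, Crot read 245, 243 and 248 on the chronic arrays, 422, 377 and 427 on the acute arrays and 240, 321 and 253 on the saline arrays. The 3 acute arrays of DBA/2J lay above all others of the strain. The acute minus saline difference in DBA/2J was 0.60 ± 0.14 (adjusted p = 0.0325; 0.718% of all genes were called higher there) and the chronic minus acute difference -0.73 ± 0.14 (adjusted p = 0.0207; 1.07% called lower). In C57BL/6J the readings of Crot were 253, 250 and 223 on chronic, 406, 371 and 371 on acute and 301, 366 and 326 on saline arrays. The chronic minus acute difference there was -0.66 ± 0.14 (adjusted p = 0.0325; 0.129% of all genes called lower). Each of these 3 calls was lost on omission of single arrays of the strain. Omitting acute number 1 or 3 ended both DBA/2J calls, as did saline number 1 or 3 for the acute call (adjusted p up to 0.172) and chronic number 1 or 3 for the other (up to 0.117), and in C57BL/6J any acute array or chronic number 1 or 3 did (up to 0.202). A second probe set of Crot read differently, with a chronic minus acute difference of 0.07 (adjusted p = 0.651).

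Cpt2 encodes carnitine palmitoyltransferase 2 of the inner mitochondrial membrane, which turns acylcarnitine back into acyl-CoA. Its signals lay near the limit of the filter, from 73.7 to 127 (median 97.5) in chronic, 115 to 163 (median 135) in acute and 95.7 to 144 (median 110) in saline arrays. Of the 12 chronic arrays, 9 lay below every acute array. Cpt2 fell by 0.44 ± 0.06 in chronic relative to acute groups (fold 0.738, adjusted p = 0.00014), with all 3 chronic arrays below all 3 acute arrays in 4 of 4 strains. In acute groups it was 0.27 ± 0.06 higher than in saline groups (adjusted p = 0.0117, and 0.138 with the random block). In DBA/2J the chronic arrays read 96.0, 91.6 and 98.7 and the acute arrays 154, 127 and 154, a difference of -0.60 ± 0.12 (adjusted p = 0.0258, and up to 0.1445 without acute or chronic number 1 or 3). The other shuttle genes were not called. Cpt1a, the rate-limiting acyltransferase of the outer membrane, had a chronic minus acute difference of -0.14 ± 0.06 (adjusted p = 0.061), Slc25a20, the carnitine-acylcarnitine carrier, -0.16 ± 0.07 (adjusted p = 0.0809), and Cpt1c, a brain form, -0.08. Crat, carnitine acetyltransferase, had 0.09. The 2 other detected probe sets of Cpt1a, both with the suffix _x_at, were called lower, at -0.55 and -0.50.

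**Figure D3:**
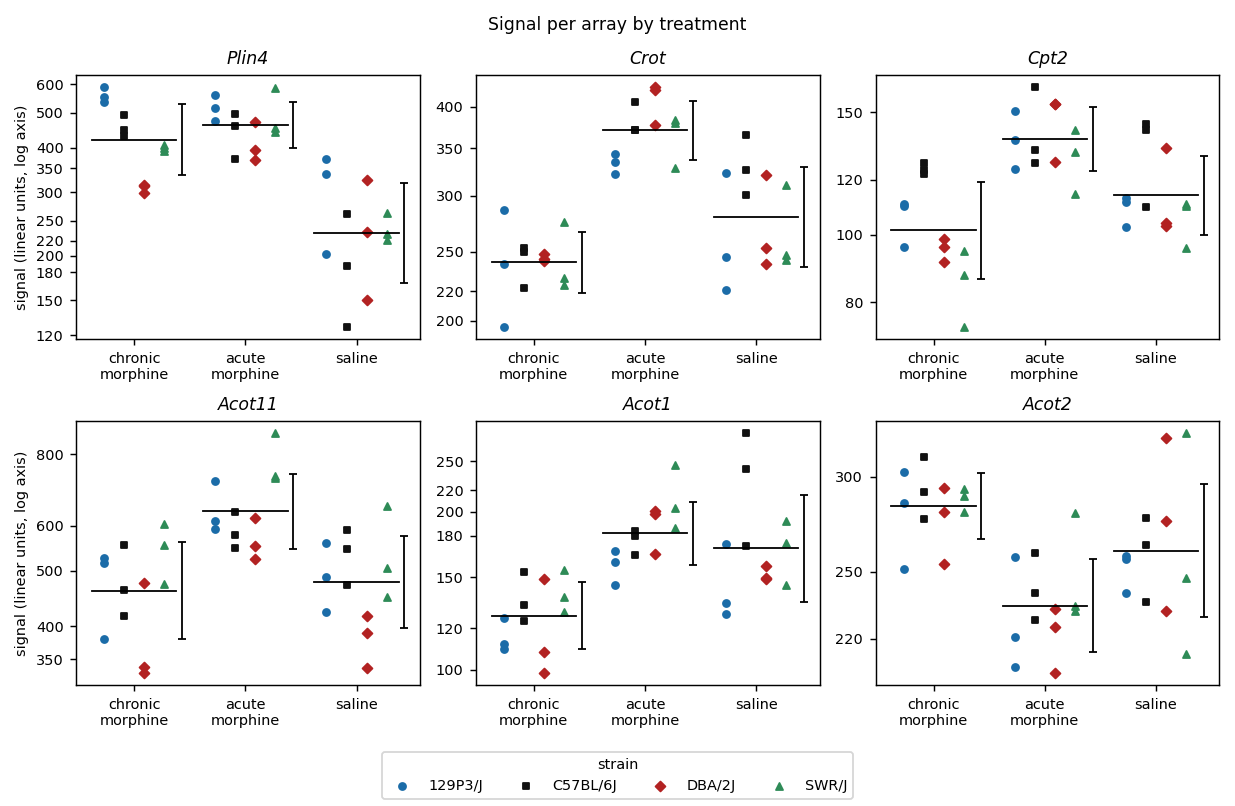
Signal of 6 members on each of the 36 arrays (y axis, deposited intensity on a log axis) by treatment (x axis), with strains marked by colour and shape. The line is the geometric mean of 12 arrays and the bar at its right spans 1 SD of the log2 values to each side. All chronic arrays of Crot lie below all acute arrays, and 10 of 12 acute arrays of Plin4 lie above every saline array.

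Plin4 had the largest change among the members in both morphine conditions. It encodes perilipin 4, a coat protein of lipid droplets. Its signal was 298 to 592 (median 419) in chronic, 369 to 587 (median 466) in acute and 126 to 371 (median 231) in saline arrays, so that 9 of 12 chronic and 10 of 12 acute arrays lay above every saline array. Plin4 was 0.86 ± 0.11 higher in chronic than in saline groups (fold 1.82, adjusted p = 5.2e-05) and 1.00 ± 0.11 higher in acute than in saline groups (fold 1.99, adjusted p = 1.67e-06). The chronic minus acute difference was -0.13 ± 0.11 (adjusted p = 0.409). In C57BL/6J it read 430, 448 and 492 on chronic, 460, 496 and 371 on acute and 126, 188 and 262 on saline arrays. There the chronic minus saline difference was 1.31 ± 0.22 (adjusted p = 0.00442; 0.522% of all genes called higher) and the acute minus saline difference 1.26 ± 0.22 (adjusted p = 0.00528; 0.174% called higher). Leaving out C57BL/6J saline array number 1, the array with the lowest Plin4 signal and one of those that stand apart in controls, gave an adjusted p of 0.0836 for the acute difference in that strain, and acute number 2 also ended that call. Over all strains Plin4 kept both calls without the 3 saline arrays that stand apart (adjusted p = 0.00021 in chronic groups). Plin2, another droplet coat protein, changed by -0.08 in chronic and -0.03 in acute groups relative to saline and was not called.

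Ppara could not be tested with the filter, since its brightest probe set passed the limit on 5 of 36 arrays. That probe set read 58.8 to 109 (median 77.3) in chronic, 63.0 to 108 (median 90.0) in acute and 52.6 to 100.1 (median 63.9) in saline arrays, with overlapping ranges. In a fit without the filter its acute minus saline difference was 0.41 (adjusted p = 0.006), while a second probe set of Ppara had -0.03 (adjusted p = 0.945). The remaining probe set of Ppara, above the limit on 0 arrays, had 0.35 (adjusted p = 0.427). Ehhadh and Acox3, both at 0 arrays above the limit, were not called in that fit.

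All 3 acyl-CoA thioesterases were called in at least 1 contrast, in different directions. Acot11, which hydrolyses long-chain acyl-CoA and binds lipid through a START domain, read 331 to 603 (median 475) in chronic, 525 to 873 (median 615) in acute and 338 to 648 (median 480) in saline arrays. Of the 12 chronic arrays, 8 lay below every acute array. Acot11 fell by 0.46 ± 0.08 in chronic relative to acute groups (fold 0.726, adjusted p = 0.000404) and was 0.41 ± 0.08 higher in acute than in saline groups (fold 1.33, adjusted p = 0.00224, and 0.0543 with the random block), with all 12 acute arrays above the saline median. The chronic minus saline difference was -0.05 ± 0.08.

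Acot1, the cytosolic thioesterase of long-chain acyl-CoA, read 98.4 to 155 (median 127) in chronic, 145 to 246 (median 182) in acute and 128 to 283 (median 165) in saline arrays. All 12 chronic arrays lay below the medians of both other treatments. It fell by 0.52 ± 0.08 in chronic relative to acute groups (fold 0.696, adjusted p = 0.00022) and by 0.43 ± 0.08 relative to saline groups (fold 0.744, adjusted p = 0.00241, and 0.0825 with the random block). In C57BL/6J, Acot1 read 124, 133 and 154 on chronic and 242, 283 and 172 on saline arrays, a difference of -0.74 ± 0.16 (adjusted p = 0.0206, and up to 0.0979 without chronic number 1 or 3 or saline number 1 or 2; 1.58% of all genes called lower). In DBA/2J it read 108, 149 and 98.4 on chronic and 198, 166 and 200.4 on acute arrays, a difference of -0.69 ± 0.16 (adjusted p = 0.0386, and up to 0.1975 without chronic or acute number 1 or 3). Its neighbour Acot2, the mitochondrial form, was the member called higher in chronic than in acute groups, by 0.28 ± 0.06 (fold 1.21, adjusted p = 0.00302), with 252 to 311 (median 287) in chronic and 206 to 280 (median 232) in acute arrays. All 12 chronic arrays of Acot2 lay above the acute median and 9 above every acute array. A second probe set of Acot2, above the limit on 1 of 36 arrays and so not tested, read the other way. Its median was 73.0 in chronic and 88.5 in acute arrays, with 11 of 12 chronic arrays below the acute median. The thioesterase genes of this cluster are close copies of each other, so that these probe sets may share signal between them.

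Among the 5 enzymes of hydration, second oxidation and thiolysis, Hadhb was called. It encodes the beta subunit of the mitochondrial trifunctional protein, which holds the long-chain thiolase. Its probe set read 721 to 1197 (median 966) in chronic, 1123 to 1433 (median 1247) in acute and 935 to 1335 (median 1124) in saline arrays. Of the 12 chronic arrays 10 lay below every acute array, and Hadhb fell by 0.38 ± 0.07 in chronic relative to acute groups (fold 0.766, adjusted p = 0.000611). That probe set has the suffix _x_at, and of the other probe sets of Hadhb 1 gave a smaller fall, -0.16 (adjusted p = 0.0472), and 1 gave 0.19 (adjusted p = 0.086). Hadha, whose start lies head to head with that of Hadhb and which encodes the alpha subunit, had -0.14 ± 0.06 (adjusted p = 0.072). Hadh, the short-chain hydroxyacyl-CoA dehydrogenase, had -0.17 ± 0.07 (adjusted p = 0.0806), and Echs1 and Acaa2 had -0.10 and 0.02. Hadh was represented by an _x_at probe set, and its 2 other probe sets were called lower, at -0.21 and -0.29.

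Hsd17b4, the peroxisomal multifunctional protein, read 350 to 759 (median 605) in chronic, 707 to 811 (median 754) in acute and 564 to 748 (median 699) in saline arrays. Of the 12 chronic arrays 11 lay below every acute array, and the exception was C57BL/6J number 2 at 759, whose partners in the group read 436 and 350. Hsd17b4 fell by 0.40 ± 0.08 in chronic relative to acute groups (fold 0.757, adjusted p = 0.00147). Its second probe set gave -0.10 (adjusted p = 0.195). Acaa1a, the peroxisomal thiolase, had -0.10 ± 0.07.

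Of the 5 acyl-CoA dehydrogenases, all lay below 0 in chronic relative to acute groups, between -0.28 and -0.06, and 1 was called. Acadm, the medium-chain enzyme, read 652 to 808 (median 704) in chronic and 714 to 849 (median 761) in acute arrays. It fell by 0.13 ± 0.04 (adjusted p = 0.015, and 0.108 with the random block), a change of small size, with 7 of 12 chronic arrays below every acute array. Acadsb, the short and branched chain enzyme, had the widest difference, -0.28 ± 0.11, but was not called (adjusted p = 0.051). The electron transfer flavoproteins had no call, with differences of -0.17 for Etfa, 0.04 for Etfb and -0.06 for Etfdh. Of the auxiliary enzymes for unsaturated chains, Eci2 fell by 0.20 ± 0.04 in chronic relative to acute groups (adjusted p = 0.00256), with 569 to 717 (median 614) in chronic and 594 to 776 (median 715) in acute arrays. Eci2 was 0.16 ± 0.04 higher in acute than in saline groups (adjusted p = 0.0349), a call that 13 of the 36 omissions of a single array ended (adjusted p up to 0.0842), as did the random block (0.235) and the omission of the 3 saline arrays (0.0933). Eci1 had -0.03 and Decr1 0.11, neither called.

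The ketone body enzymes Oxct1 and Acat1 were called lower in chronic than in acute groups, and Bdh1, the hydroxybutyrate dehydrogenase, was not (0.04). Oxct1, the transferase that commits ketone bodies to oxidation outside the liver, read 1401 to 1961 (median 1571) in chronic, 1803 to 2178 (median 1931) in acute and 1489 to 2729 (median 1763) in saline arrays. It fell by 0.29 ± 0.07 (fold 0.819, adjusted p = 0.00337), with 9 of 12 chronic arrays below every acute array. In each strain the chronic array numbered 2 was the highest of its group, at 1667 in SWR/J, 1888 in DBA/2J, 1961 in C57BL/6J and 1809 in 129P3/J. The 3 other probe sets of Oxct1 had differences of -0.12 (adjusted p = 0.0798), -0.55 and -0.62, the last 2 called. Acat1, the acetoacetyl-CoA thiolase, read 887 to 1056 (median 931) in chronic and 969 to 1180 (median 1070) in acute arrays. It fell by 0.15 ± 0.04 (adjusted p = 0.0073, and 0.0811 with the random block).

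Of the long-chain acyl-CoA synthetases, Acsl3 and Acsl4 were called and Acsl5 and Acsl6 were not. Acsl3, which activates fatty acids at the endoplasmic reticulum and on droplets, read 1088 to 1454 (median 1315) in chronic, 1279 to 1526 (median 1431) in acute and 1058 to 1434 (median 1292) in saline arrays. It was 0.18 ± 0.05 higher in acute than in saline groups (adjusted p = 0.0235, and 0.214 with the random block) and fell by 0.14 ± 0.05 in chronic relative to acute groups (adjusted p = 0.0326, and 0.171 with the random block). Omission of 129P3/J saline number 1 or DBA/2J saline number 1 ended the acute call (adjusted p up to 0.055), and 7 single omissions ended the other (up to 0.0698). The 2 other probe sets of Acsl3 gave larger differences, -0.22 and -0.43. Acsl4, which prefers arachidonic acid, had -0.24 ± 0.09 in chronic relative to acute groups (adjusted p = 0.0402, and 0.2 with the random block). Its chronic arrays ran from 280 to 627 and enclosed the acute range of 465 to 606, and 13 single omissions ended the call (adjusted p up to 0.0956).

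The 16 members with 2 or more detected probe sets had 40 probe sets, and the choice of probe set moved several of these values. In chronic relative to acute groups the median over all detected probe sets of the array was -0.05 for the 1628 with the suffix _x_at, which can bind transcripts of other genes, and -0.05 for the 1562 with _s_at, against 0.0024 for the 20668 with the plain suffix. The _x_at probe sets of Hadhb, Hsd17b4, Oxct1 and Cpt1a gave larger falls than a plain probe set of the same gene, and that of Crat had a smaller positive difference. Hadh went the other way, with -0.17 and -0.21 for its _x_at probe sets and -0.29 for the plain one. With the mean of all detected probe sets of a gene in place of 1, 16 members were called, 14 lower and 2 higher, of which 12 were among the 13 of the first count. The count over all genes in that fit was not computed. Acsl4 lost its call (adjusted p = 0.18), and Cpt1a, Slc25a20, Crat and Hadh gained one.

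**Figure D4:**
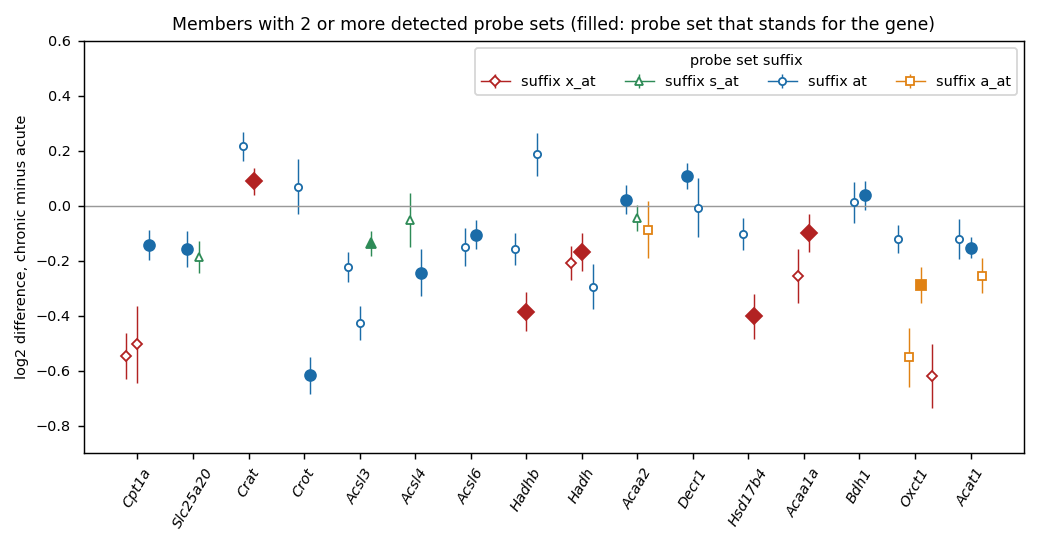
Log2 difference of chronic minus acute morphine over all strains (y axis, with its standard error) for every detected probe set of the 16 members with 2 or more (x axis). Shape and colour give the suffix of the probe set, and the filled point is the one that stands for the gene. For Crot the filled point is at -0.62 and the other at 0.07.

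Strain effects called 6 of the 36 members by the F-test at an FDR of 1%, against 12.4% of all genes. The clearest was Decr1, the dienoyl-CoA reductase for unsaturated chains, with signals of 170 to 211 (median 185) on the 9 arrays of 129P3/J. They read 225 to 308 (median 249) in SWR/J, 232 to 299.8 (median 262) in DBA/2J and 234 to 293 (median 253) in C57BL/6J, so that every array of 129P3/J lay below every array of the other 3 strains, which overlapped each other. Relative to the mean of the 4 strains, Decr1 was -0.35 ± 0.03 in 129P3/J (adjusted p = 3.24e-09; strain F-test, adjusted p = 2.19e-08). A second probe set of Decr1 had no strain effect (adjusted p = 0.865). Acaa1a was low in DBA/2J, at 225 to 334 (median 282), against 342 to 513 (median 389.7) in SWR/J, 360.0 to 455 (median 407) in C57BL/6J and 301 to 449.8 (median 393) in 129P3/J. Its difference from the strain mean in DBA/2J was -0.39 ± 0.05 (adjusted p = 8.62e-07; F-test, 4.24e-06), and its second probe set gave -0.76.

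Acot11 was lowest in DBA/2J, -0.27 ± 0.06 from the strain mean, and highest in SWR/J, 0.22 ± 0.06 (F-test, adjusted p = 0.00145), although the arrays overlapped, at 449.5 to 873 in SWR/J and 331 to 618 in DBA/2J. Acadl, the long-chain dehydrogenase, was 0.18 ± 0.04 above the strain mean in C57BL/6J and -0.16 ± 0.04 in 129P3/J (F-test, adjusted p = 0.00331). Its signal was 375 to 466 in C57BL/6J and 299 to 392 in 129P3/J. Cpt2 was 0.17 ± 0.04 above the mean in C57BL/6J and -0.16 ± 0.04 in SWR/J (F-test, adjusted p = 0.00928). Acadvl, the very-long-chain dehydrogenase, had its highest value in DBA/2J, 0.12 ± 0.03 (F-test, adjusted p = 0.00932). Single omissions ended the strain call of Cpt2 in 26 of 36 cases (adjusted p up to 0.029), of Acadvl in 28 (up to 0.0241) and of Acadl in 1, C57BL/6J chronic number 2 (0.0102). Without the 3 saline arrays that stand apart, Acadl (adjusted p = 0.0186), Cpt2 (0.0321) and Acadvl (0.047) no longer passed the FDR of 1%, and Decr1, Acaa1a and Acot11 did. With the random block Acadl (adjusted p = 0.00024), Cpt2 (0.00127) and Acadvl (0.00173) kept the strain call, as did Decr1, Acaa1a and Acot11. Acot1 and Etfb, next in order, passed the FDR of 1% with that block (0.00283 and 0.00405). Without the block and with all arrays they did not (0.0117 and 0.0157). A second probe set of Bdh1 (adjusted p = 0.00143) and one of Crat (2.69e-05) passed the strain F-test while the probe sets that stand for those genes did not (0.554 for Bdh1 and 0.034 for Crat).

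**Figure D5:**
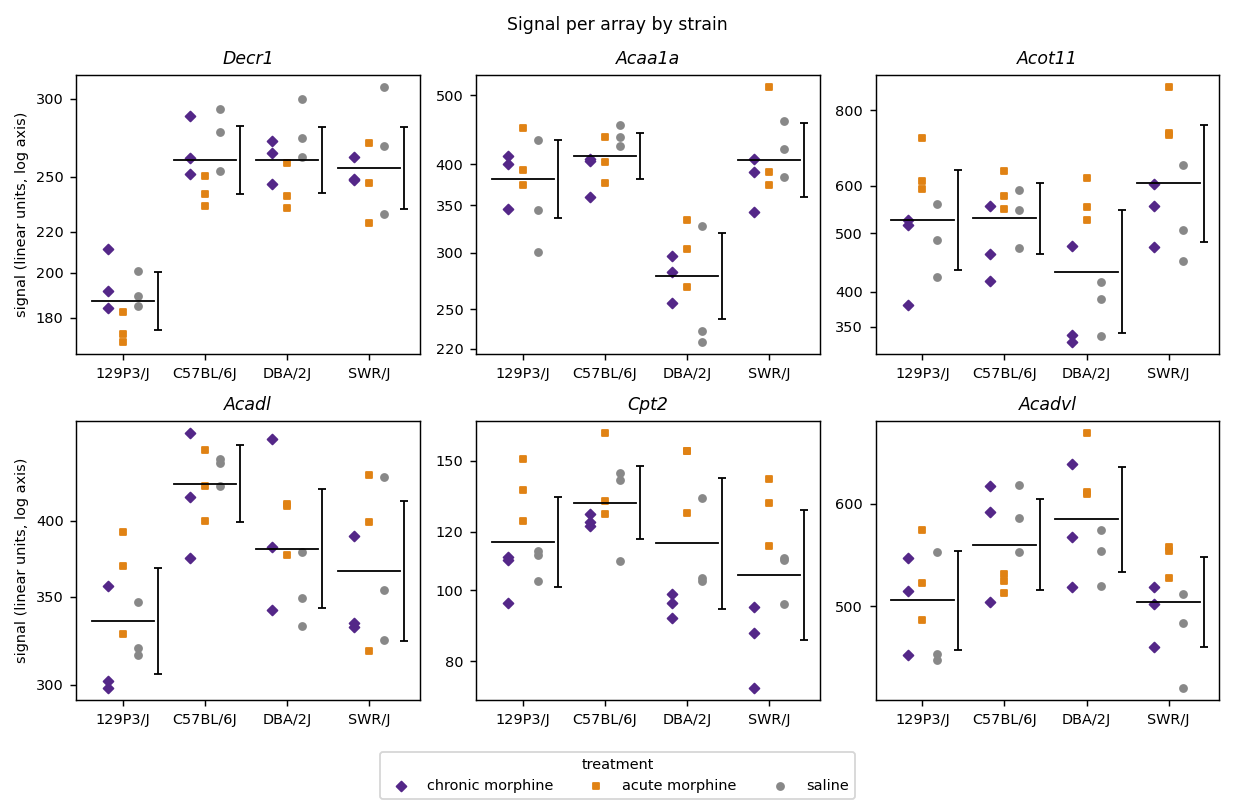
Signal of the 6 members with a strain effect on each array (y axis, deposited intensity on a log axis) by strain (x axis), with treatments marked by colour and shape. The line is the geometric mean of 9 arrays and the bar spans 1 SD of the log2 values to each side. The 129P3/J arrays of Decr1, 170 to 211, lie below all others.

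No strain by morphine interaction was called: 0 of 36 members passed the limma F-test at an FDR of 1%, as did 0 of 13224 genes (0%). A test that called no gene at all, with 3 arrays per group, cannot show that the members lack an interaction. With 1 probe set per gene, 0 of 36 members in limma and 0 in the ordinary linear model had an unadjusted p under 0.05, as did 677 of 13224 genes (5.12%) in limma. Over all detected probe sets, 2 of the 60 of the members did, a second one of Acsl6 and a second one of Hsd17b4, and 1399 of 27212 on the array. Among the probe sets that stand for the members, the lowest p was 0.0711, for Acot1, whose acute minus saline difference was -0.37 in C57BL/6J, 0.31 in SWR/J, 0.30 in DBA/2J and 0.13 in 129P3/J. A call in 1 strain and not in another is therefore not shown to be a difference between strains for Crot, Cpt2, Plin4 or Acot1.

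Of 52 other genes of the pathway, 37 were detected and 12 were called between chronic and acute groups, 9 lower and 3 higher (17.5% and 6.08% of all genes), with a median difference of -0.02. Pdk4, the kinase that turns pyruvate dehydrogenase off and favours fat as fuel, was 0.81 ± 0.09 higher in acute than in saline groups (adjusted p = 2.91e-06) and fell by 0.49 ± 0.09 in chronic relative to acute groups (adjusted p = 0.000865). Scp2, the peroxisomal sterol carrier with thiolase activity, fell by 0.31, Acad9, a dehydrogenase needed for complex I assembly, by 0.30, and Angptl4, an inhibitor of lipoprotein lipase, by 0.28 (adjusted p = 0.206 for Angptl4 with the random block). The 3 called higher were Ppargc1a, the coactivator of mitochondrial genes, at 0.75, Mgll, the monoacylglycerol lipase, at 0.29, and Lpin1, a phosphatidate phosphatase, at 0.20 (adjusted p = 0.098 for Lpin1 with the random block). The other detected probe sets of Scp2 did not pass the morphine F-test at an FDR of 1% (adjusted p from 0.304 to 0.656). Neither did those of Ppargc1a (0.0599 to 0.833) or Acad9 (0.0898). For Mgll 1 other probe set passed (0.00385) and 1 did not (0.151). Relative to saline, 3 were called higher and 2 lower in acute groups (2.92% and 1.74% of all genes). Besides Pdk4 they were Acsbg1, a brain acyl-CoA synthetase, at 0.24, Acad8, a dehydrogenase of valine breakdown, at 0.20, Slc16a1, the monocarboxylate transporter that carries lactate and ketone bodies, at -0.28, and Ppargc1a at -0.42. The random block left Pdk4 alone of these 5 (adjusted p = 0.0001), with 0.169 for Acsbg1, 0.266 for Acad8, 0.306 for Slc16a1 and 0.166 for Ppargc1a. In chronic groups relative to saline Mgll (0.29) and Pdk4 (0.32) were called higher and Fabp7, the fatty acid binding protein of astrocytes and precursors (-0.53), Slc16a1 (-0.45) and Dbi, the acyl-CoA binding protein (-0.14), lower (1.35% of all genes higher and 4.39% lower). None of these 5 passed with the random block, with adjusted p from 0.0709 for Mgll to 0.332 for Dbi.

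Cell type markers were also called in the comparison of chronic with acute groups, in which 17.5% of all genes were called lower and 6.08% higher. In chronic relative to acute groups 4 of 10 astrocyte markers were called lower and 0 higher, with a median difference of -0.12, and their summed signal was 16320 to 18650 in chronic, 17290 to 19860 in acute and 16030 to 20240 in saline arrays. Of 9 detected oligodendrocyte markers 5 were called lower and 0 higher, with a median of -0.20 and sums of 17520 to 23130 in chronic, 18780 to 22630 in acute and 18320 to 27410 in saline arrays. Of 8 microglia markers 1 was called higher, and their sum was 4049 to 6661 in chronic and 4350 to 5913 in acute arrays. Of 8 medium spiny neuron markers 1 was called lower. Of 6 endothelial, 3 choroid plexus and ependyma, 3 cortical excitatory neuron and 2 red blood cell markers 0 were called by limma. At an unadjusted p under 0.05 there were 1, 0, 1 and 1 of these, and 36.6% of all genes. With the random block only Gja1, S100b, Olig1 and Cnp among all markers kept their call between chronic and acute groups. The sum of the cortical markers was 709.9 to 2256 in chronic, 637 to 1602 in acute and 299 to 1518 in saline arrays. Their median log2 difference from saline was 0.77 in chronic and 0.30 in acute groups, with 0 called by limma in either. In chronic relative to saline groups all 3 had an unadjusted p under 0.05, as did 23.8% of all genes. The acute rise of Plin4, Crot, Cpt2, Acot11, Eci2 and Acsl3 over saline went with 1 astrocyte marker called higher, Gjb6 at 0.51. Called lower were 2 oligodendrocyte (Olig2, Ugt8a), 2 microglia (Aif1, Cx3cr1) and 2 endothelial markers (Tek, Flt1). Of all genes 2.92% were called higher and 1.74% lower there. Aif1 and Flt1 lost the call with the random block (adjusted p = 0.272 for each). In chronic groups relative to saline, beside the higher Plin4 and the lower Acot1, 1 astrocyte marker, Gjb6, was called higher (1.35% of all genes). Called lower (4.39% of all genes) were 5 of 9 oligodendrocyte markers, 3 of 8 medium spiny neuron markers (Rgs9, Drd2, Bcl11b), 2 astrocyte markers (Aqp4, Gja1) and 1 endothelial marker (Flt1). Of these markers only Olig2 and Ugt8a kept the call with the random block. The part of these cell types in the members' differences was not tested.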

How the data were processed

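The deposited table holds a linear signal intensity for 45101 probe sets, 64 of them Affymetrix controls, on 36 arrays, which the authors computed in dChip as model-based indices from perfect match and mismatch probes after quantile normalization between arrays. Array medians were 119 to 133. Precision is set by how many arrays there are. Intensities were turned into log2 values with a pseudocount of 0. The low-signal limit of 6.64 on 9 arrays is the signal part of the study's filter. Its other part, on present calls, was not applied, since present calls were not analysed here. A model with a mean for each of the 12 groups was fitted in limma 3.58.1 (R 4.3.3) with moderated variances. F-tests used an FDR of 1% and contrasts one of 5%, adjusted over all detected probe sets. The random block used duplicateCorrelation (statmod 1.5.0), with a consensus correlation of 0.24. Tables and figures used Python 3.11.15, pandas 2.3.3, numpy 2.4.6 and matplotlib 3.10.9.

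The members, the lists of other pathway genes and markers, and the tests were chosen with earlier results of these data known. Values were given for members called by the morphine F-test or in a contrast over all strains and for the 8 of smallest strain p, and of the other pathway genes up to 4 called per contrast and direction. Other named genes were picked after their values were seen. Probe sets were named through the platform annotation, and probe sets with several genes were not used. Alternatives covered the normalization and pseudocount, the low-signal filter, replicate blocks, array weights and moderation, the choice of probe set, thresholds and omitted arrays.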

Additional observations from a re-analysis of the deposited data

How the results depend on the processing

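No result changed its direction past the threshold under any alternative run. Acute against saline, 6 members were called, and 2 with the random replicate block, 12 with array weights and 3 at an adjusted p under 0.01. Chronic against saline, 2 were called, and 5 with the fixed replicate block, 1 with the random block, 4 in the ordinary linear model, 8 with array weights and 5 with the mean of all detected probe sets. Chronic against acute, 13 were called, and 20 with array weights and 9 with the random block. Of 13224 genes, the random block called 101 in place of 616 for acute against saline, 63 in place of 759 for chronic against saline and 952 in place of 3122 for chronic against acute. For the other alternatives counts over all genes were not computed, so that their member counts have no share beside them. The morphine F-test called 10, and 3 with the random block and 17 with array weights. The strain F-test called 6, and 3 without the 3 saline arrays that stand apart and 10 at an FDR of 5%. Within single strains 8 calls were made, and 5 without the filter, 20 with the fixed block, 50 with array weights, 4 without the 3 saline arrays and 2 at an adjusted p under 0.01.

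Omission of single arrays gave 4 to 8 acute calls, 2 to 10 chronic calls, 11 to 17 for chronic against acute, 4 to 18 within strains, 7 to 11 for the morphine F-test, 4 to 8 for the strain F-test and 0 to 0 for the interaction. Chronic calls numbered 10 without C57BL/6J chronic number 2, 5 without DBA/2J chronic number 2, and 4 without SWR/J chronic number 2 or 129P3/J saline number 1. Calls within strains numbered 18 without C57BL/6J chronic number 2, 4 without DBA/2J acute number 1 or 3, and 5 without DBA/2J chronic number 1 or 3. Omission of the 4 chronic arrays numbered 2, an alternative chosen after seeing the data, gave 11 chronic calls and 25 within strains, and the 9 chronic calls added were Acadm, Acat1, Acsl6, Crot, Etfa, Hadh, Hadhb, Hsd17b4 and Oxct1. Whether calls over all genes rose alike in these fits was not computed, and the cause was not tested.

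Numbers did not pair arrays of a strain across treatments: the mean correlation of deviations was 0.03 over 36 same-numbered pairs, with 38.9% above 0.1. Of the values of single genes under the alternatives, 2740 kept their side of the threshold, 53 passed it newly and 57 no longer did. The number of arrays and low signals near the filter, as for Cpt2 and Acot1, limit the precision.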
